A study of Mus musculus with 6 samples.

Results

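Macrophages and monocytes are recognised in mouse tissue by a small set of genes, and 10 of them were followed here in a myeloid cell line that carried a splicing factor mutant. The genes were Lyz2, Lyz1, Mpeg1, Cd68, Cd14, Mrc1, Msr1, Itgam, Ccr1 and Adgre1, taken by symbol from the 54532 genes of the count table, and each symbol matched a single row. RNA sequencing was done on 32D cells, a mouse myeloblast-like line that depends on interleukin-3, in 2 groups of 3 libraries. The S34F group had been transduced with a GFP-marked MSCV retrovirus carrying human U2AF1 with the S34F substitution, which is found in myeloid malignancies, and the WT group with the same vector carrying wild-type human U2AF1. Both groups grew in medium with serum and interleukin-3, and the labels name no clone and no separate cultures. The genotype labels spell the gene as the mouse gene (U2af1), while the protocol describes added human U2AF1 and no editing of the mouse gene. The p-values set the difference between the groups against the scatter of these libraries. Since the labels name no separate cultures, that scatter may be technical in part.

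The genes fall into 3 roles. Lysozymes, the pore-forming protein of Mpeg1 and the lysosomal glycoprotein CD68 act inside phagocytes on material they have taken up. CD14, the mannose receptor (Mrc1) and the scavenger receptor of Msr1 bind microbial or altered ligands at the surface. The integrin subunit CD11b (Itgam), the chemokine receptor CCR1 and the adhesion-type receptor F4/80 (Adgre1) serve adhesion, migration and cell contact. In the myeloid lineage many of these genes are driven by the transcription factor PU.1 together with C/EBP factors. None of them belongs to macrophages alone: CD11b, CCR1, CD14 and Lyz2 are also made by neutrophils or their precursors.

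Totals lay between 16509899 and 19129250 counts per library. Values are counts-per-million (CPM), scaled to the effective library size, where 1 count is worth 0.052 to 0.0608 CPM. Mouse U2af1 did not pass the test (log2 fold change 0.17 ± 0.25 SE, edgeR adjusted p = 0.721), and gene counts do not show which human allele was present. WT replicates 2 and 3 were far closer to each other than other libraries, with a biological coefficient of variation of 3.16%. The remaining 5 pairs of the same group had 16.5% to 21.5%, and the 9 pairs of unlike groups 21.7% to 29.5%. The fit was therefore also run with these 2 libraries summed into 1. Of the markers of myeloblasts, Mpo was between 2.99 and 15.8 CPM and Ctsg between 186 and 395 CPM over the 6 libraries, while Elane had 19 counts in all.

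Of the 7 genes with enough counts to test, only Ccr1 passed the threshold in edgeR. It rose 4.43-fold, and Cd68, Lyz2, Cd14 and Mpeg1 had mean levels between 2.77-fold and 4.26-fold of the WT level that did not pass the test. Itgam and Adgre1 differed less, at 1.502-fold and 1.13-fold, and neither passed. Mrc1 and Lyz1 were close to the limit of detection and Msr1 had 0 counts in every library. Here and in the lists that follow, whether a gene at 0 counts was not expressed or its reads were not counted was not tested. In bulk RNA more cells of a type and more RNA per cell cannot be told apart.

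Of the 10 genes, 7 passed the filter on low counts, each with at least 20 counts in every library of both groups, and 3 did not. By edgeR's quasi-likelihood test with Benjamini-Hochberg adjustment over 13444 genes, 1 of the 7 was called, and it was higher in S34F; over all genes tested 2.18% were called and 1.58% were called higher. At an unadjusted p under 0.05 there were 5 of the 7, against 22.0% of all genes. The 7 log2 fold changes were all positive, with a median of 1.81 beside 0.00 for all genes tested. The markers were chosen with earlier results of these data known, so these values only describe them and test no excess. In 2 of the 7, Ccr1 and Cd68, all 3 S34F libraries lay above all 3 WT libraries, as did 14.0% of all genes tested (27.1% lay apart in either direction). Without S34F replicate 1, WT replicate 2 or WT replicate 3, or with WT replicates 2 and 3 summed, 0 of the 7 were called, and without WT replicate 1 there were 2. Over all genes these fits called 20, 19, 22, 20 and 1177, in that order, beside 293 with all libraries. DESeq2 called 3 of the 7 (Ccr1, Cd68 and Lyz2), with 9.04% of all genes called by the same tool, and limma-voom 2 (Ccr1 and Cd68), with 2.01% of all genes called.

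**Figure D1:**
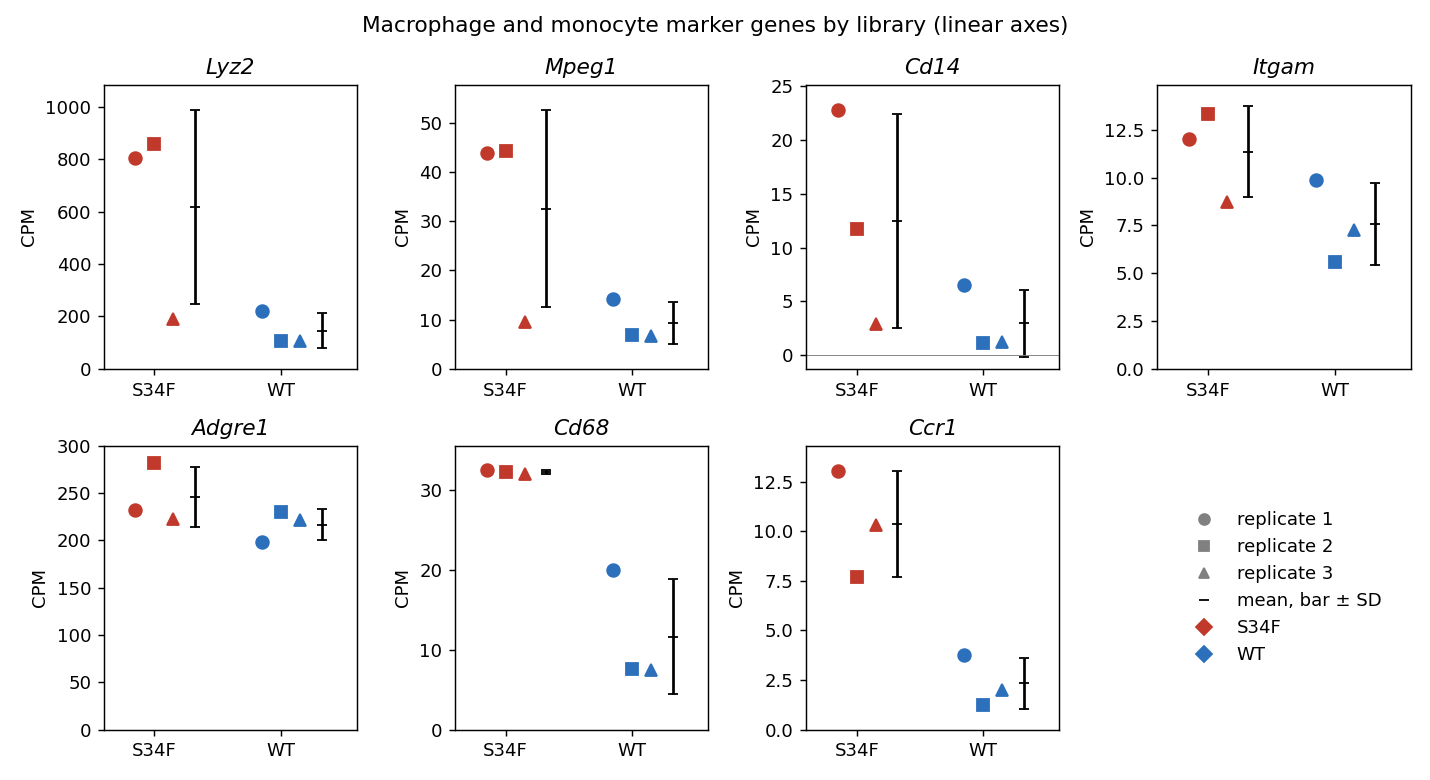
Level of the 7 tested genes in each library, in CPM on linear axes that start at 0 or just below, with S34F left of WT. Circles, squares and triangles are replicates 1, 2 and 3, and the black bars are the mean ± SD of 3 libraries. For Lyz2, Mpeg1 and Cd14, S34F replicate 3 lies below WT replicate 1, while for Cd68 and Ccr1 all S34F libraries lie above all WT libraries.

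Lyz2 encodes the M-type lysozyme, which cuts the peptidoglycan of bacterial cell walls and is the usual driver gene for recombination in myeloid cells. It had the highest level of the 10 genes per exon length, in both groups (ENSMUSG00000069516, mm10 chromosome 10, 117277331 to 117282321, minus strand, 4 exon blocks). Its level was 803, 856 and 192 CPM in S34F replicates 1 to 3, against 222, 107 and 106 CPM in WT replicates 1 to 3. S34F replicates 1 and 2 stood high, whereas S34F replicate 3 lay between WT replicate 1 and the other WT libraries, so the groups overlapped. The means were 617 ± 369 CPM in S34F and 145 ± 66.7 CPM in WT (SD, n = 3 each), with a log2 fold change of 2.09 ± 0.58 (SE) that did not pass (edgeR adjusted p = 0.109). Without S34F replicate 3 it was 2.52 and passed (edgeR adjusted p = 0.0398), and with WT replicates 2 and 3 summed it was 1.91 (adjusted p = 0.388).

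Lyz1 encodes the P-type lysozyme, a close copy known from Paneth cells of the gut, and lies next to Lyz2 on the same strand (ENSMUSG00000069515, mm10 chromosome 10, 117287797 to 117292868). Its counts were 2, 1 and 2 in S34F, against 0, 0 and 2 in WT, in the order of the replicates, which is below the 3 counts that a count of 0 allows per library, so no fold is given. Over the same libraries Lyz2 had 33892 counts in S34F and 7421 in WT. The longest GENCODE transcripts of both genes were 96.0% identical over 1262 aligned bases, and 15.4% of all 50-base windows of Lyz2, 5.96% of its 75-base windows and 0% of its 150-base windows occurred in Lyz1. Neither the read length nor the treatment of multi-mapped reads is stated in the labels, so how reads of this pair were divided could not be checked. Summed into 1 row the pair gave a log2 fold change of 2.09 (edgeR adjusted p = 0.109), the value of Lyz2 alone.

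The pair also resemble each other upstream of their RefSeq start sites, which is shown because their counts lie so far apart. In the 250 bases before the RefSeq start (build GRCm38.p6), 200 of 248 aligned bases were identical (80.6%), and the last 50 bases before the start were the same in both. For Lyz2 these 50 bases lie almost wholly inside the GENCODE gene, which runs to 117282321. The 200 bases before that stretch are printed 5′ to 3′ on the minus strand, at chr10:117282323-117282522 for Lyz2 and chr10:117292919-117293118 for Lyz1, with capitals at bases that differ or are unaligned in the pair.
Lyz2: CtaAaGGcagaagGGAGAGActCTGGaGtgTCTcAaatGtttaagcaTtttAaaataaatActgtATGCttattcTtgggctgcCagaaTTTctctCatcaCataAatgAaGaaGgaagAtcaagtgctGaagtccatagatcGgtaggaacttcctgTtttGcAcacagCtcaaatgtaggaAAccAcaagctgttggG
Lyz1: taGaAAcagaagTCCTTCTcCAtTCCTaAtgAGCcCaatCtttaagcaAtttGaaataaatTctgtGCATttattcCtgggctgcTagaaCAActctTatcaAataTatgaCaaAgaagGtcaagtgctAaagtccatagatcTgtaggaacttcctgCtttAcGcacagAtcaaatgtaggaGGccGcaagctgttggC
The capitals run through the whole printed stretch, whereas the 50 bases next to the RefSeq start hold none.

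Mpeg1 encodes perforin-2, a pore-forming protein that acts on bacteria inside phagocytes (ENSMUSG00000046805, chromosome 19, 12460779 to 12465283, plus strand). It had 43.9, 44.3 and 9.44 CPM in S34F replicates 1 to 3, against 14.2, 6.89 and 6.70 CPM in WT replicates 1 to 3. The pattern over libraries was that of Lyz2: S34F replicates 1 and 2 were high, and S34F replicate 3 lay below WT replicate 1. The log2 fold change was 1.81 ± 0.55 (SE, n = 3 per group) and did not pass (edgeR adjusted p = 0.115). It ranged from 1.53 to 2.27 when a library was left out and passed in none of these fits, where the edgeR adjusted p lay between 0.0531 and 0.441.

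Cd68 encodes a heavily glycosylated protein of late endosomes and lysosomes and is widely used as a macrophage stain (ENSMUSG00000018774, chromosome 11, 69664213 to 69666153, minus strand). It had 32.4, 32.2 and 32.0 CPM in S34F replicates 1 to 3, against 19.9, 7.54 and 7.46 CPM in WT replicates 1 to 3. The S34F libraries were nearly equal and all above the WT libraries, of which WT replicate 1 was the highest. The means were 32.2 ± 0.217 CPM in S34F and 11.7 ± 7.19 CPM in WT (SD, n = 3 each). The log2 fold change of 1.47 ± 0.35 (SE) did not pass in edgeR (adjusted p = 0.0695), but passed in DESeq2 (adjusted p = 8.00e-04) and in limma-voom (adjusted p = 0.0390). Without WT replicate 1 it was 2.11 and passed (edgeR adjusted p = 0.00188), while with WT replicates 2 and 3 summed it was 1.25 (adjusted p = 0.232).

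The highest S34F library had 1.01 times the Cd68 level of the lowest, a ratio exceeded by all but 0.261% of the 11096 genes whose mean reached 2 CPM. In WT the ratio was 2.67, above that of 98.2% of these genes. The median gene had 1.28 in S34F and 1.24 in WT. For Lyz2, Mpeg1 and Cd14 the spread was wide in both groups. The highest library had 4.47, 4.70 and 7.79 times the lowest in S34F, above 99.3%, 99.4% and 99.8% of the genes, and 2.09, 2.12 and 5.58 times in WT.

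Cd14 encodes the co-receptor that hands bacterial lipopolysaccharide to TLR4 (ENSMUSG00000051439, chromosome 18, 36725067 to 36726798, minus strand, a single exon block). It had 22.8, 11.8 and 2.93 CPM in S34F replicates 1 to 3, against 6.57, 1.18 and 1.19 CPM in WT replicates 1 to 3. Here too S34F replicate 3 lay below WT replicate 1, at 0.445 of its level, and the groups overlapped. The log2 fold change was 2.08 ± 0.83 (SE, n = 3 per group; edgeR adjusted p = 0.193) and did not pass. Left-out libraries moved it between 1.30, without S34F replicate 1, and 3.40, without WT replicate 1, with edgeR adjusted p-values of 0.489 and 0.0541.

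The endocytic receptors that mark tissue macrophages were at or near the floor. Mrc1, which encodes the mannose receptor, had 9, 9 and 3 counts in S34F, against 5, 6 and 8 in WT, in the order of the replicates. The ratio of S34F to WT, scaled to library totals, was 1.04 (exact 95% interval 0.534 to 2.05, for counting error only), so no difference was detectable at this depth. Msr1, which encodes a scavenger receptor for modified lipoproteins, had 0 counts in all 6 libraries, which allows up to 0.156 to 0.182 CPM per library.

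Ccr1 encodes a receptor for the chemokines CCL3, CCL5, CCL6 and CCL9 on monocytes and neutrophils (ENSMUSG00000025804, chromosome 9, 123962124 to 123968692, minus strand). It had 13.03, 7.70 and 10.3 CPM in S34F replicates 1 to 3, against 3.77, 1.24 and 2.0003 CPM in WT replicates 1 to 3. The groups did not overlap, and the lowest S34F library had 2.04 times the level of the highest WT library. The means were 10.4 ± 2.67 CPM in S34F and 2.34 ± 1.30 CPM in WT (SD, n = 3 each), with a log2 fold change of 2.15 ± 0.39 (SE, edgeR adjusted p = 0.0357). The call was lost without S34F replicate 1 (adjusted p = 0.136), S34F replicate 3 (0.106), WT replicate 2 (0.121) or WT replicate 3 (0.156), and with WT replicates 2 and 3 summed (edgeR adjusted p = 0.119), where the log2 fold change was between 1.84 and 2.15. Over all genes these fits called 20, 50, 19, 22 and 20, in that order, beside 293 with all libraries.

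Itgam encodes the alpha chain of the integrin that binds complement fragment iC3b and ICAM-1 (ENSMUSG00000030786, chromosome 7, 128062640 to 128118491, plus strand, 30 exon blocks). It had 12.0, 13.3 and 8.72 CPM in S34F replicates 1 to 3, against 9.85, 5.60 and 7.24 CPM in WT replicates 1 to 3. S34F replicate 3 lay below WT replicate 1, and the log2 fold change of 0.59 ± 0.26 (SE, n = 3 each) did not pass (edgeR adjusted p = 0.228). The predicted gene Gm49368, which had 0 counts, covers 68.7% of the exon bases of Itgam on the same strand. How reads from the shared bases were assigned was not tested.

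Adgre1 encodes F4/80, the antigen most used to sort mouse macrophages (ENSMUSG00000004730, chromosome 17, 57358691 to 57483527, plus strand, 22 exon blocks). It had 232, 282 and 223 CPM in S34F replicates 1 to 3, against 198, 230 and 222 CPM in WT replicates 1 to 3. The libraries of both groups overlapped, and the gene was plainly expressed in all 6. The log2 fold change was 0.18 ± 0.13 (SE, n = 3 per group; edgeR adjusted p = 0.441), the smallest of the 7, and did not pass. It kept a positive value between 0.07 and 0.25 in each of the 16 other fits.

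**Figure D2:**
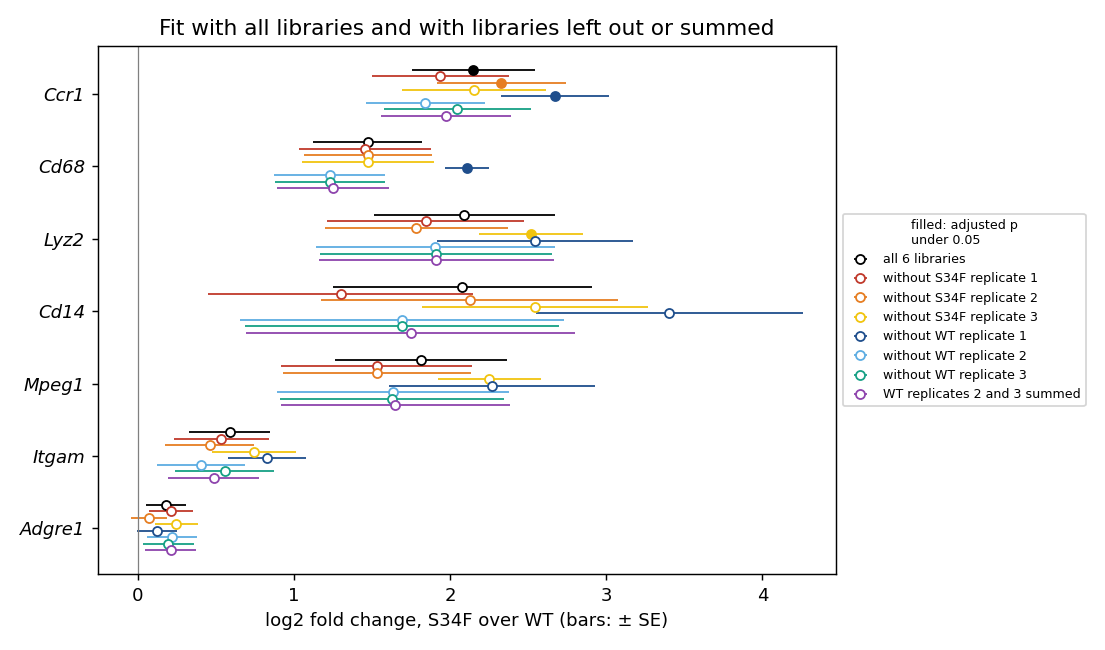
Log2 fold change of S34F over WT (horizontal axis, bars ± SE) of the 7 tested genes with all 6 libraries, with each library left out, and with WT replicates 2 and 3 summed into 1. Filled points have an edgeR adjusted p under 0.05. Ccr1 is filled in 3 of its 8 fits, Cd68 and Lyz2 in 1 each, and the other genes in none.

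Compared per exon length, the 10 genes spanned several orders of magnitude. In reads per kilobase of exon, scaled like CPM (RPKM), Lyz2 averaged 469 ± 280 in S34F and 110.1 ± 50.7 in WT, Adgre1 75.8 ± 9.81 in S34F and 67.0 ± 5.08 in WT, and Cd68 25.6 ± 0.173 in S34F and 9.27 ± 5.72 in WT (SD, n = 3 each). Mpeg1 averaged 7.51 ± 4.62 RPKM in S34F and 2.14 ± 0.991 in WT, Cd14 7.21 ± 5.75 in S34F and 1.72 ± 1.80 in WT, and Ccr1 3.65 ± 0.942 in S34F and 0.825 ± 0.459 in WT. Itgam averaged 2.26 ± 0.471 RPKM in S34F and 1.51 ± 0.427 in WT. The order Lyz2, Adgre1, Cd68 and Mpeg1 held in each group, with no overlap of libraries between neighbours. Mpeg1 and Cd14 overlapped in both groups, as did Cd14 and Ccr1. Ccr1 lay above Itgam in S34F without overlap, while in WT their libraries overlapped and the mean of Itgam was the higher. Mrc1, at 0.0604 ± 0.0282 RPKM in S34F and 0.0570 ± 0.0102 in WT, was below Itgam in every library.

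**Figure D3:**
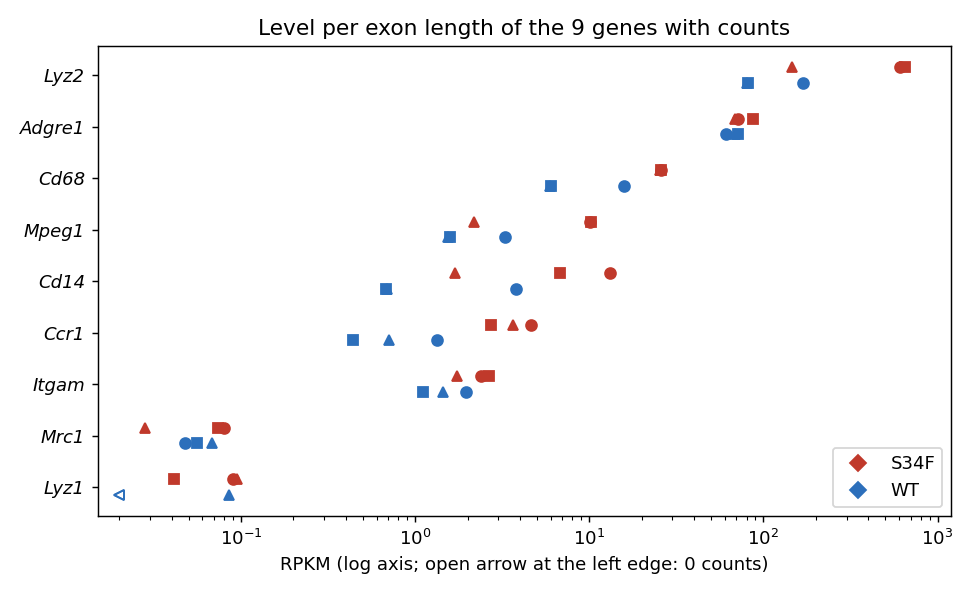
Level per exon length of the 9 genes with counts, in RPKM on a log axis, with S34F libraries drawn above WT libraries. Circles, squares and triangles are replicates 1, 2 and 3, and open arrows mark libraries with 0 counts. Lyz2 and Adgre1 lie highest, and Mrc1 and Lyz1 lie below 0.1 RPKM.

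Together the 10 genes took up 0.111%, 0.125% and 0.0479% of all counts in S34F, against 0.0466%, 0.0370% and 0.0360% in WT, in the order of the replicates. Lyz2 and Adgre1 made up between 86.7% and 93.7% of these counts in each library. The sum was therefore mainly that of 2 genes, and in it S34F replicate 3 and WT replicate 1 were nearly level.

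The sequences upstream of Ccr1 and Cd68 are shown because these were the markers whose groups did not overlap. Of the 10 genes, 7 had a window in the RefSeq table (GRCm38.p6), namely Lyz2, Lyz1, Mpeg1, Cd68, Mrc1, Itgam and Ccr1. The 250 bases before each start were searched on both strands for GAGGAA, a core bound by PU.1 and other ETS factors, and for TTGCNNAA, a C/EBP-type core. GAGGAA occurred in 4 of the 7 windows (Cd68, Itgam, Mrc1 and Ccr1) and in 23.3% of 32851 windows of the table, and TTGCNNAA in 2 of the 7 (Cd68 and Lyz1) and in 9.56% of the table. Capitals mark these motifs in Ccr1 at chr9:123968693-123968942 and in Cd68 at chr11:69666171-69666420, both read on the minus strand. Cd68 is the only window of the 7 with both motifs, and they do not overlap there.
Ccr1: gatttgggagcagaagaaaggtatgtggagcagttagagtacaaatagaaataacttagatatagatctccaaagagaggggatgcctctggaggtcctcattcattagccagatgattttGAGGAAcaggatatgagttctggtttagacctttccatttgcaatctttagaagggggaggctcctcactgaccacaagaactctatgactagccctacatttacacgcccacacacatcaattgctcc
Cd68: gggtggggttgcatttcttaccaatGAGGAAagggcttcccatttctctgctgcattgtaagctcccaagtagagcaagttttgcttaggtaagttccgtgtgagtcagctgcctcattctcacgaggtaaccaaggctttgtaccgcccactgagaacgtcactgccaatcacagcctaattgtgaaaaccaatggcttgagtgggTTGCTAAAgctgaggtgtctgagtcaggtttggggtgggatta
A match in these windows is a description of the letters, and no binding was measured.

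The genes most like Ccr1 over the 6 libraries, by Pearson correlation of log2 CPM over 9791 named genes whose mean reached 2 CPM, were Dhps (r = 0.997), Tmem167b (r = 0.997) and D8Ertd738e (r = 0.996). Those most like Lyz2 were Tpi1 (r = 0.995), a glycolytic enzyme gene, Pilra (r = 0.991) and the myeloid lectin gene Clec12a (r = 0.989). All 6 points share the libraries and the genotype, and WT replicates 2 and 3 lie very close, so these values only rank the genes.

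Genes that work with the markers were read from 7 lists of 107 genes, of which 59 passed the filter on low counts. Of these, 5 rose (8.47%, against 2.18% called of all genes tested) and none fell: Fcgr1, Ccl9, Cebpb, Zeb2 and Spi1. With WT replicates 2 and 3 summed 0 of them were called, as without S34F replicate 1, S34F replicate 3, WT replicate 2 or WT replicate 3, while without S34F replicate 2 there were 3 (2 higher) and without WT replicate 1 there were 11 (10 higher). Over all genes these fits called 20, 20, 50, 19, 22, 337 and 1177, in that order, beside 293 with all libraries. The median log2 fold change of the 59 genes was 0.21, beside 0.00 for all genes tested. The lists were chosen with earlier results of these data known, so these shares and medians only describe them and test no excess.

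**Figure D4:**
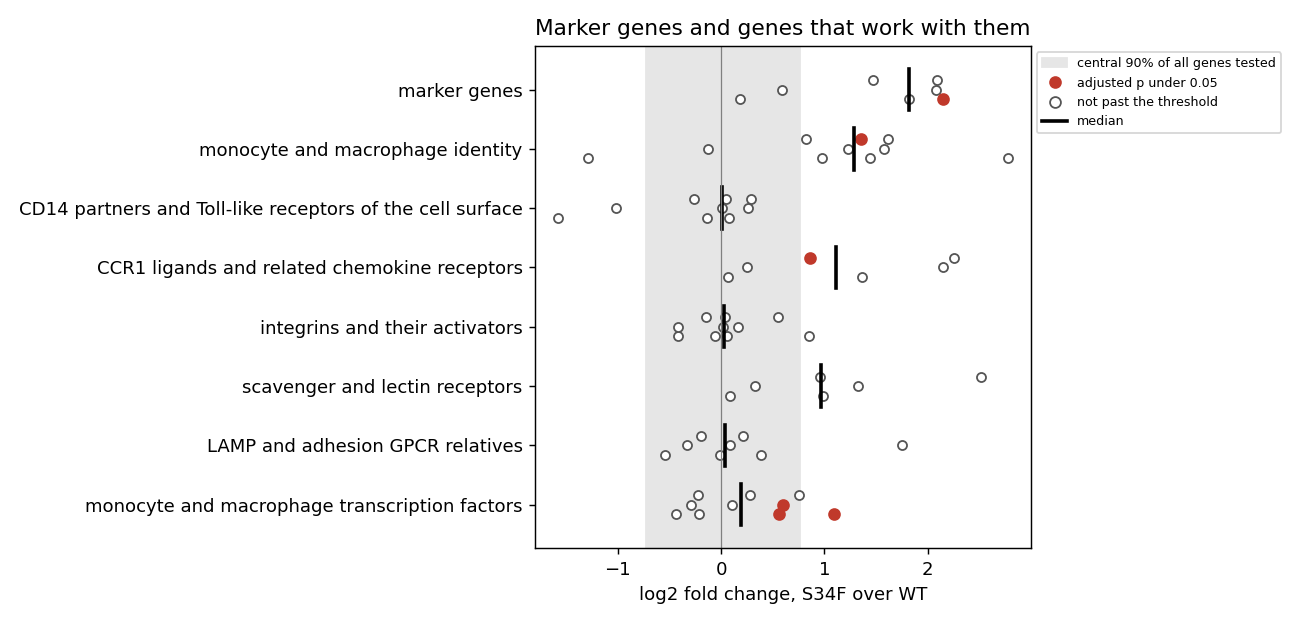
Log2 fold change of S34F over WT (horizontal axis) for each tested gene of the marker set and of 7 lists of related genes. Filled points have an edgeR adjusted p under 0.05, black lines are medians, and the grey band, from -0.73 to 0.76, holds the central 90% of all genes tested. The marker genes have a median of 1.81 and the monocyte and macrophage identity list 1.29.

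In the list of monocyte and macrophage identity, 1 of 10 tested genes rose, none fell and 18 of the 28 listed were below the filter. By edgeR 2.18% of all genes tested were called. DESeq2 called 4 (Fcgr2b, Fcgr1, Clec12a and Trem2) and limma-voom 1, and 8 of the 10 had an unadjusted p under 0.05, of which F13a1 was on the lower side (log2 fold change -1.29). Over all genes tested the shares were 9.04%, 2.01% and 22.0%, in that order. Fcgr1, the high-affinity Fc receptor CD64 that separates macrophages from dendritic cells, had 60.1, 33.6 and 49.2 CPM in S34F replicates 1 to 3, against 13.7, 22.6 and 19.8 CPM in WT replicates 1 to 3. All S34F libraries were above the WT libraries, and the log2 fold change was 1.35 ± 0.25 (SE, n = 3 each; edgeR adjusted p = 0.0355; 0.112 with WT replicates 2 and 3 summed and 0.0549 with the GC trend removed). Csf1r, the receptor for macrophage colony-stimulating factor, had 16.02, 34.9 and 4.84 CPM in S34F and 10.3, 4.54 and 5.68 CPM in WT, in the order of the replicates. It overlapped between the groups and did not pass (log2 fold change 1.44 ± 0.62, SE; edgeR adjusted p = 0.217). The median of the 10 log2 fold changes was 1.29. Several genes of blood monocytes and resident macrophages had few or no counts. Ly6c2, Timd4, C1qa, C1qb, Ms4a7, Ms4a6c and Gpnmb had 0 counts in all libraries, and Ccr2, Cx3cr1, Mertk and Siglec1 had 11, 22, 4 and 12 counts in all.

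CD14 works with TLR4 and MD-2, and this list showed no gene past the threshold in 9 tested by edgeR, DESeq2 or limma-voom. At an unadjusted p under 0.05 there were 2 of the 9, near the 22.0% of all genes. Tlr4 had 99.0, 118 and 120.5 CPM in S34F, against 153, 125 and 126 CPM in WT, in the order of the replicates (log2 fold change -0.26 ± 0.13, SE; edgeR adjusted p = 0.279). The member with the smallest p was Tlr6, with a log2 fold change of -1.01 ± 0.34 (SE; edgeR adjusted p = 0.143). The median log2 fold change of the list was 0.01.

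Of the CCR1 ligands and related receptors, 1 of 6 tested genes rose, and none fell, against 2.18% called of all genes tested. DESeq2 and limma-voom each called 1, with 9.04% and 2.01% of all genes called. At an unadjusted p under 0.05 there were 4 of the 6, against 22.0% of all genes. In 3 of the 6, Ccl9, Ccl3 and Ccl6, all S34F libraries lay above all WT libraries, as did 14.0% of all genes tested. Ccl9, a CCR1 ligand made by myeloid cells of the mouse, had 485, 651 and 502 CPM in S34F replicates 1 to 3, against 306, 292 and 305 CPM in WT replicates 1 to 3. The groups did not overlap, and the log2 fold change was 0.86 ± 0.14 (SE, n = 3 each; edgeR adjusted p = 0.0257; 0.119 with WT replicates 2 and 3 summed). Ccl3, another ligand of CCR1, had 123, 340 and 115 CPM in S34F and 93.4, 13.7 and 14.3 CPM in WT and did not pass (log2 fold change 2.25 ± 0.86, SE; edgeR adjusted p = 0.196). The related receptor gene Ccr3 had 2 counts over all libraries.

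Among integrins and their activators 0 of 10 genes were called by edgeR or limma-voom and 1 by DESeq2, with 2 at an unadjusted p under 0.05. The last 2 counts are near the shares over all genes, 9.04% by DESeq2 and 22.0% at an unadjusted p under 0.05. Itgb2, the beta chain that pairs with CD11b, had 160.1, 160.7 and 131 CPM in S34F, against 88.2, 105.5 and 115 CPM in WT, in the order of the replicates. The groups did not overlap, and the log2 fold change of 0.55 ± 0.14 (SE, n = 3 each) did not pass in edgeR (adjusted p = 0.0747). Itgax, the CD11c chain of dendritic cells and some macrophages, had 4 counts in all.

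Among scavenger and lectin receptors 0 of 6 tested genes were called by edgeR or limma-voom and 2 by DESeq2 (Clec4d and Clec4n), with 3 at an unadjusted p under 0.05. DESeq2 called 9.04% of all genes, and 22.0% had an unadjusted p under 0.05. Clec4n, which encodes the fungal receptor dectin-2, had 12.9, 12.6 and 3.58 CPM in S34F, against 2.92, 1.12 and 1.08 CPM in WT, in the order of the replicates (log2 fold change 2.52 ± 0.56, SE; edgeR adjusted p = 0.0593). As for Lyz2, S34F replicate 3 was the lowest S34F library, here still above the WT libraries. Cd36, Cd163, Clec7a, Scara5, Colec12 and Cd209a had 0 counts. The list of relatives of CD68 and F4/80 also held Prf1 and Gzmb, of which Gzmb was among the 8 tested. Of these 8 genes 0 were called by edgeR or limma-voom and 1 by DESeq2 (Lamp2), with 1 at an unadjusted p under 0.05. These counts stand beside the same shares of all genes, 9.04% and 22.0%. Lamp2, a lysosomal membrane protein gene, had a log2 fold change of 0.38 ± 0.11 (SE; edgeR adjusted p = 0.109).

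Of the transcription factors of the lineage, 3 of 10 tested genes rose and none fell, against 2.18% called of all genes tested. DESeq2 and limma-voom each called 3, with 9.04% and 2.01% of all genes called. At an unadjusted p under 0.05 there were 4 of the 10, of which Runx1 was on the lower side, against 22.0% of all genes. Cebpb, which encodes C/EBP beta, had 323, 336 and 238 CPM in S34F replicates 1 to 3, against 188, 114 and 119 CPM in WT replicates 1 to 3. Its log2 fold change was 1.09 ± 0.21 (SE, n = 3 per group; edgeR adjusted p = 0.0438). Spi1, which encodes PU.1, had 217, 194 and 170 CPM in S34F replicates 1 to 3, against 120, 131 and 134 CPM in WT replicates 1 to 3. Its log2 fold change was 0.60 ± 0.12 (SE; edgeR adjusted p = 0.0491). Zeb2, a repressor needed in monocyte development, rose with a log2 fold change of 0.56 ± 0.11 (SE; edgeR adjusted p = 0.0438). In all 3 genes the S34F libraries lay above the WT libraries, as did 14.0% of all genes tested. The 3 were named because they passed the test, so this adds nothing to their calls. Runx1 lay wholly below in S34F and did not pass (log2 fold change -0.29 ± 0.12, SE, edgeR adjusted p = 0.187).

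These calls were close to the threshold. With WT replicates 2 and 3 summed the edgeR adjusted p was 0.171 for Cebpb, 0.192 for Spi1 and 0.218 for Zeb2. With the trend of counts with GC content removed, Spi1 had a log2 fold change of 0.42 (edgeR adjusted p = 0.130) and Cebpb 0.84 (0.0668). In that fit Zeb2 kept its call, with a log2 fold change of 0.72 (edgeR adjusted p = 0.027). Cebpa, Maf and Klf4 had 0 counts in all libraries, and Irf8, the factor of the monocyte and dendritic cell branch, had 2. Whether reads of the genes at 0 went uncounted was not tested.

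Markers of other cell types were read beside these genes, and over all genes tested edgeR called 2.18%. Of 16 neutrophil and granulocyte precursor markers 8 were tested and 1 rose, Lcn2 (log2 fold change 2.68 ± 0.22, SE; edgeR adjusted p = 0.00292), and their summed level was 785 to 1146 CPM in S34F and 374 to 434 CPM in WT. Lcn2 and Ctsg made up 90.9% to 95.03% of that sum in S34F and 76.6% to 84.8% in WT. The 7 tested genes other than Lcn2, with log2 fold changes of both signs (Ngp -1.06, S100a9 1.20), did not pass in edgeR. DESeq2 called 2 (Lcn2 and Ctsg) and limma-voom 1 (Lcn2), with 2 of the 8 at an unadjusted p under 0.05. Over all genes these shares were 9.04%, 2.01% and 22.0%. Ctsg had 367, 395 and 361 CPM in S34F, against 186, 283 and 284 CPM in WT, in the order of the replicates. All S34F libraries lay above the WT libraries (log2 fold change 0.58 ± 0.17, SE, edgeR adjusted p = 0.106). Retnlg had 0 counts and Ly6g 2. Of 10 dendritic cell markers 1 was tested and rose, Cd74 (3.999-fold; edgeR adjusted p = 0.0257; 0.118 with WT replicates 2 and 3 summed), with a sum of 114 to 174 CPM in S34F and 24.4 to 55.0 CPM in WT. Cd74 alone had 127, 173 and 114 CPM in S34F and 54.5, 25.2 and 23.8 CPM in WT, nearly all of that sum. H2-Aa, H2-Ab1, Siglech and Cd209a had 0 counts and Flt3 1. Of 10 erythroid and megakaryocyte markers 6 were tested, with 0 called by edgeR, 2 by DESeq2, 1 by limma-voom and 2 at an unadjusted p under 0.05. Over all genes the shares were 2.18%, 9.04%, 2.01% and 22.0%, in that order. Their sum was 749 to 875 CPM in S34F and 587 to 618 CPM in WT, and Gp1bb had 0 counts. Itga2b alone had 712, 769 and 830 CPM in S34F and 559, 603 and 606 CPM in WT, most of that sum. Pf4 had the smallest p (log2 fold change 1.45 ± 0.35, SE; edgeR adjusted p = 0.0699).

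The remaining lists held little RNA or moved little. Of 10 mast cell and basophil markers 2 were tested, with 0 called by any of the 3 tools and 0 at an unadjusted p under 0.05, and a sum of 429 to 530 CPM in S34F and 395 to 470 CPM in WT. Gata2 alone had 420, 495 and 526 CPM in S34F and 393, 463 and 446 CPM in WT, nearly all of that sum. Fcer1a, Prss34 and Tpsb2 had 0 counts, and Mcpt8 had a log2 fold change of 0.90 ± 0.48 (SE; edgeR adjusted p = 0.314). B and T lymphocyte markers summed to 0.478 to 0.936 CPM in S34F and 1.03 to 1.77 CPM in WT, with 1 of 10 tested and 0 called by any tool (1 at an unadjusted p under 0.05). Ms4a1, Cd3e and Cd3g had 0 counts, and the tested gene was Trac (log2 fold change -1.63 ± 0.43, SE; edgeR adjusted p = 0.0865). Fibroblast markers summed to 0.597 to 3.07 CPM in S34F and 1.70 to 2.83 CPM in WT, with 1 of 6 tested, 0 called by any tool and 0 at an unadjusted p under 0.05, and Col3a1, Dcn, Pdgfra and Lum at 0 counts. The tested gene was Col1a1 (log2 fold change -0.45 ± 0.54, SE; edgeR adjusted p = 0.660). The part of these markers in the differences of Ccr1 and the other genes was not tested.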

How the data were processed

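Per the labels, the libraries were of mRNA type, prepared from total RNA by a strand-preserving NEBNext kit. The authors deposited raw counts per Ensembl gene, 1 column per library, and HISAT2, featureCounts and the build mm10 are named per the submitters' processing notes. Of tool versions, strand setting, annotation release and ambiguous reads, the sources used here say nothing. No row was without a gene, and 27 symbols that had been turned into dates were restored by ID.

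Columns were matched to samples by name. The 54532 genes were filtered (filterByExpr) to 13444 and tested with TMM factors in edgeR 4.0.16 (R 4.3.3) by the robust quasi-likelihood F test, two-sided, genotype only, called at a Benjamini-Hochberg adjusted p under 0.05. Standard errors are the log2 fold change over the root of F. The procedure was tested on simulated counts. RPKM used exon lengths of GENCODE M21 on mm10, which held 54495 IDs. Sequences came from RefSeq.

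The named genes were the 10 markers, per related list up to 4 called genes or that with the smallest p, and the 3 most similar genes of Ccr1 and Lyz2. Others are named for being at the floor, for their share of a sum or for their role. They were picked after their values were seen. Some genes of the lists are not reported here by name. The markers and lists were chosen with earlier results of these data known. Alternatives were RLE, upper-quartile and total scaling, 2 other filters, DESeq2 1.42.0, limma-voom (limma 3.58.1), a replicate block, summed WT replicates, left-out libraries and removal of the loess trend (span 0.5) with GC content. Figures were drawn with matplotlib 3.10.9.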

Additional observations from a re-analysis of the deposited data

How the results depend on the processing

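Of the 7 tested markers, 1 was called with all libraries, against 3 with DESeq2, 2 with limma-voom, 3 with the replicate block, 0 with WT replicates 2 and 3 summed and 0 to 2 with a library left out. Over all genes the count was 293, against 763 with no count filter, 1216 with DESeq2, 1418 with the replicate block, 20 with WT replicates 2 and 3 summed, 163 with the GC trend removed and 19 to 1177 with a library left out (leaving out S34F replicates 1, 2 and 3 in turn gave 20, 337 and 50, and leaving out WT replicates 1, 2 and 3 in turn gave 1177, 19 and 22). Of the related genes 5 were called, against 3 with upper-quartile factors, with library totals alone or with the GC trend removed, 8 with no count filter, 12 with DESeq2, 12 with the replicate block, 0 with WT replicates 2 and 3 summed and 0 to 11 with a library left out. The markers called with the replicate block were Ccr1, Cd68 and Cd14 (log2 fold change of Cd14 2.13, adjusted p = 0.0105), while Fcgr1 (0.0506) and Cd74 (0.0505) lost their call. The cause of these shifts was not tested. The 7 markers kept a positive log2 fold change in every fit listed in the methods. Scaling by RLE, upper quartile or totals changed no marker's call and moved the median of all genes by 0.00, -0.03 and -0.03. The replicate numbers were not taken as pairs, since the labels do not say that they pair libraries. Deviations of libraries with the same number correlated at 0.33, 0.16 and 0.07, and those of S34F replicate 3 and WT replicate 2 at 0.08. Because WT replicates 2 and 3 lie so close, these values cannot tell which of them would pair with S34F replicate 2 or 3. Whether the libraries were paired was not settled. Depth limits Mrc1, Lyz1 and Msr1, for which only large differences could have been seen.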
